A study of Mus musculus with 14 samples.

Results

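The transcripts described here are those of the mouse mitochondrial genome. They were taken as every gene of the deposited transcript table whose symbol starts with mt-, which gave 37 of 54446 genes: 13 mRNAs, 2 rRNAs and 22 tRNAs. RNA was sequenced from purified hepatocytes of C57BL/6 mice with stranded libraries selected for poly(A) tails, in a study of the loss of Srsf1, a splicing factor of the SR protein family. The 14 libraries form 6 groups. The hepatocyte knockout (HKO) carried floxed Srsf1 alleles (srsf1f/f) and the albumin-Cre transgene (albcre+/-), which is active in hepatocytes, and was sampled at postnatal day 10 (P10) and at 1 month. Its controls carried albcre+/- alone at the same ages, with 2 libraries in each of these 4 groups. The acute HKO were srsf1f/f mice given aav-tbg-icre, a viral vector whose TBG promoter is active in hepatocytes, at the age of 8 weeks, and were taken 2 weeks on, at 10 weeks. Their references were srsf1f/f mice given aav-tbg-gfp, with 3 libraries in each group. Floxed line and knockout cannot be told apart at P10 and 1 month, and iCre and knockout cannot be told apart in the acute model. The labels do not say whether replicates were separate animals, so the p-values measure the spread between these libraries.

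The mitochondrial genome is a small circle that is transcribed from both strands into long precursors, which are cut mainly at the tRNAs lying between the mRNAs and rRNAs. Its mRNAs encode core subunits of respiratory complexes I, III and IV and of ATP synthase, its rRNAs build the mitochondrial ribosome and its tRNAs serve translation inside the organelle; all proteins that transcribe, cut and translate these RNAs are made from nuclear genes. Mitochondrial mRNAs carry no introns and are not spliced. In hepatocytes, which hold many mitochondria, these mRNAs are among the most abundant transcripts.

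In the GRCm38 annotation (GENCODE M21), 12 mRNAs, both rRNAs and 14 tRNAs are on the heavy-strand precursor, whose RNAs read along the plus strand of the reference. mt-Nd6 and 8 tRNAs are on the light-strand precursor, which reads along the minus strand. Neighbours touch or overlap: mt-Atp8 and mt-Atp6 share 43 bases and mt-Nd4l and mt-Nd4 share 7 bases on the same strand, while mt-Nd5 and mt-Nd6 share 14 bases on opposite strands. The sources used here do not say whether reads were counted by strand, so reads from genes that lie opposite each other cannot be told apart. The 3 tRNAs called lower at P10 and the 1 tRNA called lower in the acute model are shown here, from the GENCODE M21 transcripts, since the tRNA results turn on them. Capitals mark the anticodon. mt-Tp (tRNA for proline, chrM:15356-15422, minus strand), mt-Tn (asparagine, chrM:5089-5159, minus strand) and mt-Tc (cysteine, chrM:5192-5257, minus strand) are light-strand tRNAs, and mt-Ti (isoleucine, chrM:3706-3774, plus strand) is a heavy-strand tRNA.
mt-Tp: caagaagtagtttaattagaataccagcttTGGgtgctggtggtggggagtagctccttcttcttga
mt-Tn: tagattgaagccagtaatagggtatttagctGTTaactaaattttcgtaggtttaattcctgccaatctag
mt-Tc: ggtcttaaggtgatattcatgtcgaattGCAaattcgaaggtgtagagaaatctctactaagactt
mt-Ti: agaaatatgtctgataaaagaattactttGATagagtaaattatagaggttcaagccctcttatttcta
mt-Tn and mt-Tc follow each other with a gap of 32 bases, mt-Tp lies directly against mt-Tt on the opposite strand, and mt-Ti shares 2 bases with the end of mt-Nd1.

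Srsf1 itself stood at 23.4 to 30.0 TPM in HKO and 43.6 to 46.4 TPM in controls at P10, at 7.74 to 9.17 and 20.0 to 23.2 TPM at 1 month, and at 3.69 to 5.34 TPM in acute HKO and 16.5 to 32.3 TPM in GFP libraries. TPM (transcript abundance per length, scaled to the same total in every library) do not give read counts, so the total reads of each library are unknown. The TPM of 1 fragment, estimated for tRNAs of 69 bases, was 0.472 in acute HKO replicate 2 and 1.12 in HKO_1m replicate 2. HKO_P10 replicate 2 and HKO_1m replicate 1 stood apart. The P10 library held 74.7 TPM of Xist, against at most 0.0147 TPM in the other 13 libraries. Its Y-linked Ddx3y, Eif2s3y, Kdm5d and Uty stood at 0.0241 to 0.0436 TPM, against at least 1.22 TPM in the other 13. Read by these RNAs it was the only female library, so the HKO libraries at P10 differed in sex. They therefore came from different animals. The 7 erythroid markers of this library summed to 2919 TPM, against 229 to 486 TPM in the other P10 libraries. The 1 month library had the largest mitochondrial share of the 14 libraries. Of RNAs that carry no poly(A) tail, 77 were listed, and they summed to 251 to 302 TPM in HKO and 150 to 163 TPM in controls at P10, to 156 to 268 and 123 to 139 TPM at 1 month, and to 222 to 328 TPM in acute HKO and 158 to 188 TPM in GFP libraries. Of the 77, 64 are histone genes, which carried most of these sums. The 13 others overlapped at 1 month, at 14.7 to 19.0 TPM in HKO and 17.0 to 18.5 TPM in controls. They were higher in the knockouts without overlap at P10, at 20.7 to 22.4 TPM in HKO and 11.7 to 15.0 TPM in controls. The same held in the acute model, at 18.2 to 35.6 TPM in acute HKO and 6.47 to 11.2 TPM in GFP libraries. The 8 Kupffer cell markers summed to 39.1 to 103 TPM in HKO and 11.2 to 13.6 TPM in controls at 1 month, with 6 called higher, beside 10 hepatocyte markers at 51989 to 71395 and 67195 to 85982 TPM, with 3 called lower. At 1 month 572 of 11736 genes tested were called higher and 233 lower. The part of all these differences in the mitochondrial values was not tested.

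Mitochondrial mRNAs made up a larger part of the transcriptome in acute HKO hepatocytes than in GFP hepatocytes. They held 35.6%, 33.4% and 42.7% of all TPM in the 3 acute HKO libraries, against 11.6%, 16.0% and 14.7% in the 3 GFP libraries. The means were 37.3% ± 4.88 and 14.1% ± 2.28 (SD, n = 3 each), a ratio of 2.65, and the groups did not overlap (exact permutation test, two-sided, p = 0.1, the smallest value that 3 against 3 allows). At 1 month the 2 HKO libraries held 50.3% and 35.5%, against 30.8% and 25.8% in controls, without overlap but with means of 42.9% ± 10.4 and 28.3% ± 3.55 (SD, n = 2 each; exact permutation p = 0.333, the smallest that 2 against 2 allows). Without HKO_1m replicate 1 the difference of 14.6 percentage points was 7.18 points. At P10 the shares overlapped, at 27.2% and 33.7% in HKO and 27.9% and 31.3% in controls (exact permutation p = 1). In the acute model the Kupffer cell markers summed to 5.45 to 35.1 TPM in HKO and 3.60 to 9.48 TPM in GFP libraries, with 4 of 8 above the filter and those 4 called higher, and the hepatocyte markers to 35470 to 54421 TPM in HKO and 46843 to 59076 TPM in GFP libraries, with 4 of 10 called lower. Of all genes tested there, 5.93% were called higher and 34.8% lower. The median log2 change was -0.47 for the hepatocyte markers and -0.36 for all genes. The part of these markers in the mitochondrial shares was not tested. In bulk RNA, fewer cells of a type and less RNA per cell cannot be told apart.

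**Figure D1:**
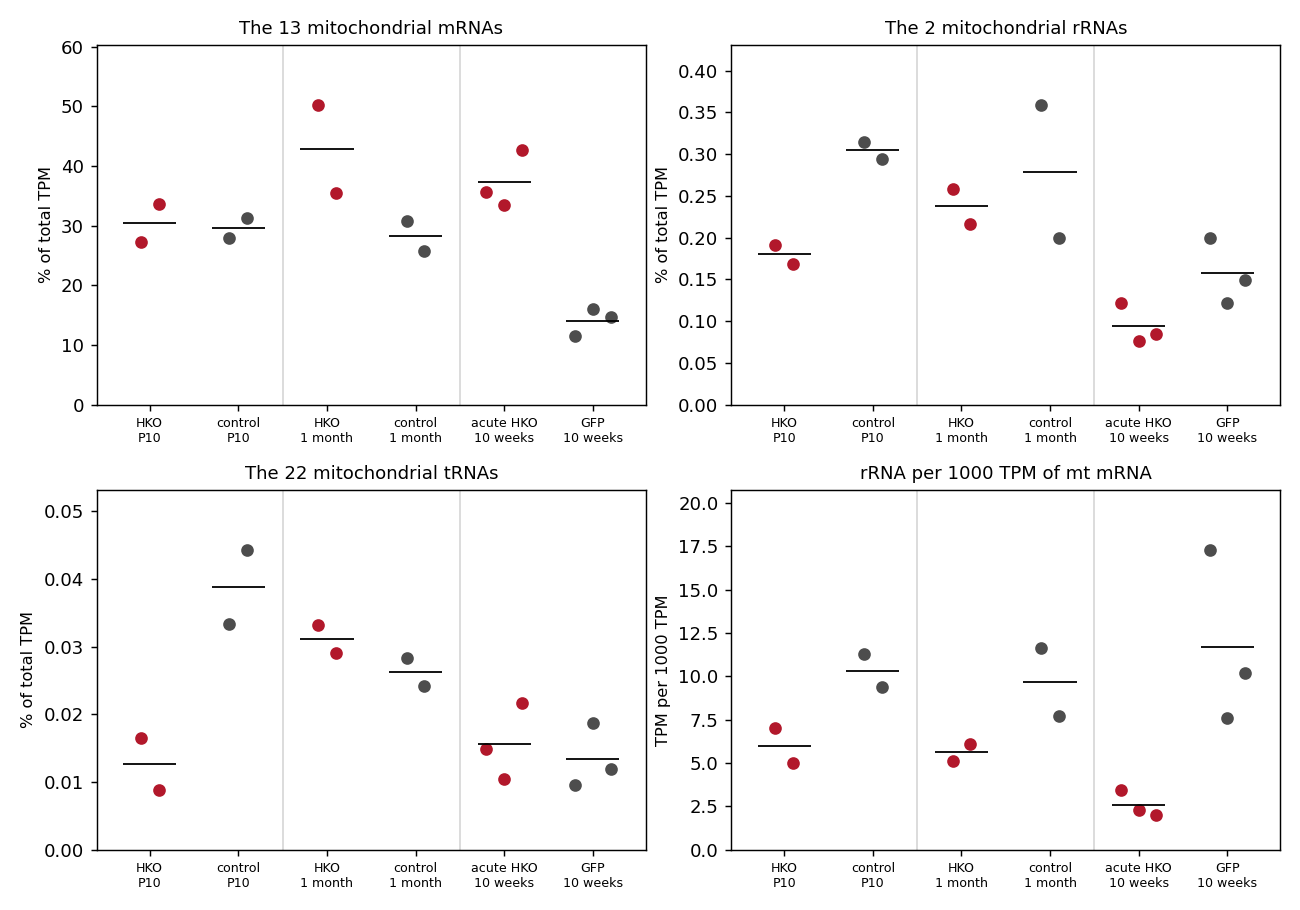
Share of total TPM of the mitochondrial mRNAs, rRNAs and tRNAs, and rRNA TPM per 1000 TPM of mitochondrial mRNA, in each library (points) with group means (lines); red marks knockout groups and grey their references. The 3 acute HKO libraries lie at 33.4% to 42.7% mRNA, above GFP libraries at 11.6% to 16.0%, while rRNA per mRNA lies lower in the knockout group of every pair.

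A share of TPM moves when any other abundant transcript moves, so the mRNAs were also set against the nuclear-encoded subunits of the same complexes. Mitochondrial mRNA TPM per TPM of the nuclear subunits of complexes I, III and IV and ATP synthase was 39.2, 36.3 and 58.3 in acute HKO libraries and 11.8, 14.5 and 12.4 in GFP libraries. These ratios averaged 44.6 ± 12.0 and 12.9 ± 1.44 (SD, n = 3 each), 3.46 times as high in acute HKO, and do not depend on how the libraries were scaled. By complex, the ratio of the group means was 3.37 for complex I, 2.92 for complex III, 3.26 for complex IV and 4.03 for ATP synthase. At 1 month the ratio was 65.9 and 32.1 in HKO libraries, against 31.1 and 22.2 in controls, and at P10 it overlapped, at 18.4 and 24.1 in HKO libraries and 20.4 and 23.2 in controls.

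In the acute model all 12 heavy-strand mRNAs rose, by 1.00 to 1.74 on the log2(TPM + 1) scale with a median of 1.32, in limma's test with Benjamini-Hochberg adjustment over all 9963 genes tested; 5.93% of all genes tested were called higher and 40.7% in either direction. The median gene stood at -0.36 in this comparison, and relative to it the 12 mRNAs stood at 1.36 to 2.11. In none of the 12 did the acute HKO and GFP libraries overlap, which held for 6.61% of all genes in the higher direction. All 12 passed the test under median-ratio scaling (1.29 to 2.04), with mitochondrial genes left out of the total (1.46 to 2.20) and without each replicate in turn; with no filter on low values mt-Nd4 and mt-Nd5 alone passed it.

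Complex I, NADH dehydrogenase, takes 7 subunits from the mitochondrial genome. mt-Nd4 had 25745, 23516 and 31495 TPM in acute HKO libraries, against 6707, 9283 and 8144 TPM in GFP libraries, and its log2 change of 1.74 ± 0.26 (SE; limma adjusted p = 9.791e-05) was the largest of the 13 mRNAs. mt-Nd5 had 11756, 9466 and 12735 TPM, against 3238, 4373 and 4181 TPM in GFP libraries (1.53 ± 0.25, adjusted p = 0.0002096). mt-Nd3 had 5609, 5693 and 4708 TPM, against 2099, 3280 and 2718 TPM in GFP libraries (1.00 ± 0.24, adjusted p = 0.004496), the smallest change of the 12. Each of the 3 was higher in all acute HKO libraries than in any GFP library. mt-Nd1, mt-Nd2 and mt-Nd4l rose by 1.31, 1.23 and 1.21 (adjusted p = 0.0009823, 0.001687 and 0.001898), and the light-strand mRNA mt-Nd6 is described below with its strand.

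Complex IV, cytochrome c oxidase, takes its catalytic core from mt-Co1, mt-Co2 and mt-Co3. mt-Co1, whose protein holds the site where oxygen is reduced, had 61776, 51536 and 70922 TPM in acute HKO libraries, against 16488, 22514 and 20898 TPM in GFP libraries (1.62 ± 0.28, limma adjusted p = 0.0003184). mt-Co2 and mt-Co3 rose by 1.41 and 1.19 (adjusted p = 0.0007177 and 0.002562). mt-Cytb, cytochrome b of complex III, averaged 20785 ± 2531 TPM in acute HKO and 8322 ± 1541 TPM in GFP libraries (SD, n = 3 each) and rose by 1.33 (adjusted p = 0.0009087). Of the ATP synthase subunits, mt-Atp6 had 45722, 49799 and 64726 TPM in acute HKO libraries, against 13518, 19550 and 16782 TPM in GFP libraries (1.68 ± 0.28, adjusted p = 0.000242), and mt-Atp8 rose by 1.18 (adjusted p = 0.003336). Lowest acute HKO values exceeded the highest GFP values in each of these 6 mRNAs.

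**Figure D2:**
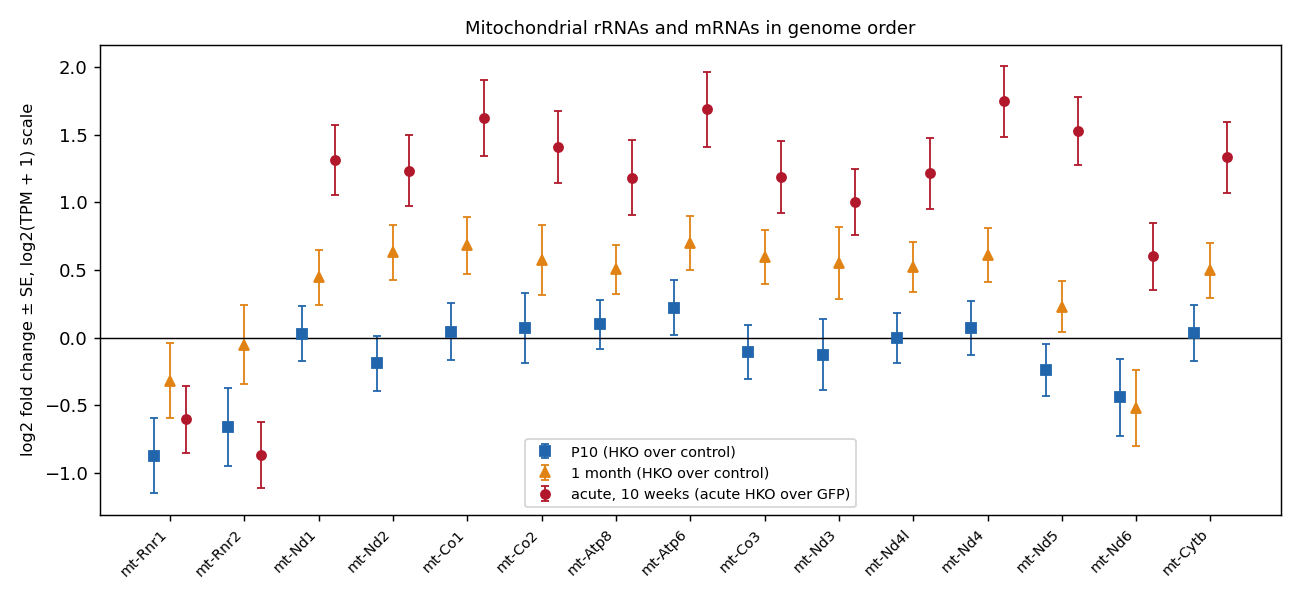
Log2 fold change with SE, on the log2(TPM + 1) scale, of each mitochondrial rRNA and mRNA in genome order, knockout over reference, at P10 (squares), 1 month (triangles) and in the acute model (circles). The 12 heavy-strand mRNAs lie at 1.00 to 1.74 in the acute model, at 0.23 to 0.70 at 1 month and at -0.24 to 0.22 at P10, while both rRNAs lie below 0 in the 3 comparisons.

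At 1 month none of the 12 heavy-strand mRNAs passed limma's test, and 9 had an unadjusted p under 0.05. Each lay higher in both HKO libraries than in both controls, as 21.1% of all 11736 genes tested did, and 6.86% of them were called in either direction. Their log2 differences were 0.23 (mt-Nd5) to 0.70 (mt-Atp6, adjusted p = 0.06639), with a median of 0.56 beside -0.001 for all genes. mt-Co1 had 78948 and 52272 TPM in HKO libraries, against 44676 and 35891 TPM in controls, and mt-Atp6 had 80110 and 57988 TPM, against 45619 and 38686 TPM. HKO_1m replicate 1 was the higher HKO library in all 12. Without that library the 12 differences were 0.14 to 0.47 and none passed, and without HKO_1m replicate 2 mt-Atp6, mt-Co1, mt-Co3 and mt-Nd2 passed.

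At P10 the 12 heavy-strand mRNAs had log2 differences of -0.24 to 0.22 with limma adjusted p-values of 0.4242 to 0.9925 and none with an unadjusted p under 0.05, beside a median of 0.25 for all genes; relative to that median they stood at -0.49 to -0.03. mt-Co1 had 34463 and 41280 TPM in HKO libraries and 35204 and 37962 TPM in controls. Under median-ratio scaling the 12 differences were -0.53 to -0.07, so the sign of those above 0 depended on the scaling. The acute response was larger than that at 1 month for mt-Nd4, by 1.13 ± 0.30 on the log2 scale (limma interaction, adjusted p = 0.03754), and for mt-Nd5, by 1.30 ± 0.29 (adjusted p = 0.01476), with 1.01% of 11219 genes called higher; model, age and virus cannot be told apart there. Both calls were lost without HKO_1m replicate 2 (adjusted p = 0.1636 and 0.06417) and without control_1m replicate 1 (0.1632 and 0.07856), and that of mt-Nd4 also without control_1m replicate 2, acute HKO replicate 1 or 3, or GFP replicate 3 (0.05679 to 0.069). With no filter on low values neither passed limma's interaction test (adjusted p = 0.1517 for mt-Nd4 and 0.06181 for mt-Nd5). With mitochondrial genes left out of the total mt-Nd4 did not pass (0.06378), while mt-Nd5 did (0.02386). The other 10 heavy-strand mRNAs had differences of the same sign, 0.45 to 0.99, that did not pass.

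The light-strand mRNA mt-Nd6, also a complex I subunit, did not pass the test in any of the 3 comparisons. It had 356 and 390 TPM in HKO and 446 and 574 TPM in control libraries at P10 (-0.44 ± 0.28, limma adjusted p = 0.3104), and 364 and 313 TPM in HKO and 622 and 376 TPM in control libraries at 1 month (-0.52 ± 0.28, adjusted p = 0.3713). With acute loss it had 289, 222 and 384 TPM in HKO libraries and 204, 141 and 243 TPM in GFP libraries, which overlapped (0.60 ± 0.25, adjusted p = 0.0591). It was called higher under median-ratio scaling (0.89, adjusted p = 0.04034) and with mitochondrial genes left out of the total (1.06, adjusted p = 0.01439). Per 1000 TPM of heavy-strand mRNA, mt-Nd6 stood at 1.31 and 1.16 in HKO and 1.60 and 1.84 in control libraries at P10. It stood at 0.725 and 0.883 in HKO and 2.02 and 1.46 in control libraries at 1 month, and at 0.811, 0.665 and 0.898 in acute HKO and 1.77, 0.882 and 1.66 in GFP libraries. This ratio was lower in the knockouts without overlap at P10 and 1 month, and with overlap in the acute model.

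Within the mRNA pool, the ratio of neighbouring genes that share 1 transcript also differed between acute HKO and GFP libraries. mt-Atp8 and mt-Atp6, and likewise mt-Nd4l and mt-Nd4, are known to remain joined as bicistronic mRNAs. mt-Atp6 TPM per mt-Atp8 TPM was 1.21, 1.32 and 1.28 in acute HKO libraries, against 0.898, 0.900 and 0.891 in GFP libraries, and mt-Nd4 per mt-Nd4l was 1.08, 1.11 and 1.14, against 0.767, 0.767 and 0.774. The first gene of each pair is the shorter one, and in acute HKO libraries the second gene had the higher TPM, while in GFP libraries the first did. At 1 month mt-Atp6 per mt-Atp8 was 1.08 and 1.05 in HKO and 0.954 and 0.910 in control libraries, and at P10 1.04 and 1.15 in HKO and 1.01 and 0.993 in control libraries, again without overlap; mt-Nd4 per mt-Nd4l overlapped at both ages. TPM depend on a library's fragment lengths through the length correction of such short genes; fragment lengths were not analysed here, and their part was not tested.

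**Figure D3:**
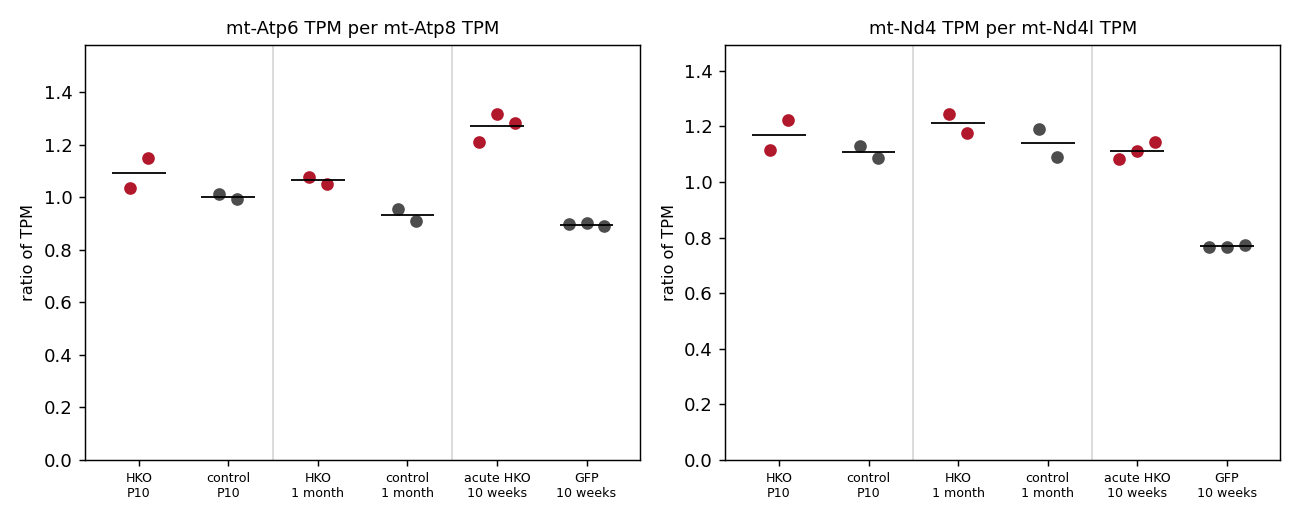
TPM of mt-Atp6 per TPM of mt-Atp8 (left) and of mt-Nd4 per TPM of mt-Nd4l (right) in each library (points), with group means (lines). Both ratios exceed 1 in all 3 acute HKO libraries and lie between 0.767 and 0.900 in all 3 GFP libraries; at P10 and 1 month the groups lie closer together.

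Both rRNAs, made from the same precursor as the heavy-strand mRNAs, had lower means in the knockouts in all 3 comparisons on deposited TPM, and 1 of these 6 differences passed the test. mt-Rnr1, the small subunit rRNA (955 bases), had 864 and 805 TPM in HKO and 1577 and 1478 TPM in control libraries at P10 (-0.87 ± 0.28, limma adjusted p = 0.06368). mt-Rnr2, the large subunit rRNA (1582 bases), had 1045 and 883 TPM in HKO and 1570 and 1467 TPM in control libraries at P10 (-0.66 ± 0.29, adjusted p = 0.1572). Neither passed the test at P10. Their groups did not overlap, which held for 13.4% of all genes in the lower direction. At 1 month both overlapped, with mt-Rnr1 at 1220 and 945 TPM in HKO and 1756 and 1019 TPM in control libraries (-0.32) and mt-Rnr2 at 1362 and 1218 TPM in HKO and 1837 and 970 TPM in control libraries (-0.05); with mitochondrial genes left out of the total the signs turned, to 0.02 and 0.29.

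After acute deletion mt-Rnr2 had 601, 368 and 389 TPM in HKO libraries, against 1015, 645 and 798 TPM in GFP libraries. It was the 1 rRNA that fell past the threshold (-0.87 ± 0.25, limma adjusted p = 0.01066), in a comparison where 34.8% of all genes were called lower. The call was lost under median-ratio scaling (-0.57, adjusted p = 0.1788), with mitochondrial genes left out of the total (-0.41, adjusted p = 0.2466) and without GFP replicate 1 (adjusted p = 0.0509) or GFP replicate 3 (adjusted p = 0.0579). mt-Rnr1 had 619, 394 and 459 TPM in acute HKO and 985, 572 and 695 TPM in GFP libraries, which overlapped (-0.60 ± 0.25, adjusted p = 0.05926); without acute HKO replicate 1 it passed (-0.78, adjusted p = 0.03186), as it did without GFP replicate 2 (-0.78, adjusted p = 0.03465).

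The ratio of rRNA to mitochondrial mRNA is free of the scaling, and it was lower in the knockouts without overlap in all 3 comparisons. Per 1000 TPM of mitochondrial mRNA the 2 rRNAs summed to 7.01 and 5.01 TPM in HKO and 11.3 and 9.39 TPM in control libraries at P10, and to 5.14 and 6.09 TPM in HKO and 11.6 and 7.71 TPM in control libraries at 1 month. With acute deletion they summed to 3.42, 2.28 and 1.98 TPM in HKO and 17.3, 7.61 and 10.2 TPM in GFP libraries, means of 2.56 and 11.7 TPM. The balance of the 2 rRNAs differed from the reference in opposite directions in the albumin-Cre and acute models. mt-Rnr2 per mt-Rnr1 was 1.21 and 1.10 in HKO and 0.995 and 0.993 in control libraries at P10, and 1.12 and 1.29 in HKO and 1.05 and 0.951 in control libraries at 1 month. In the acute model it was 0.971, 0.934 and 0.848 in acute HKO and 1.03, 1.13 and 1.15 in GFP libraries. The groups overlapped in none of the 3 comparisons. The rRNAs end in short tails, so their level in libraries selected for poly(A) may differ from their level in the cell.

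The tRNAs held 0.00886% to 0.0443% of TPM over the 14 libraries. Mature tRNAs have no poly(A) tail, and their TPM here may include precursors and pieces left on neighbouring RNAs. Of the 22, 16 had a mean of at least 1 TPM in the libraries at P10 and 1 month and were tested, and 10 in the acute libraries. At P10 they held 0.0165% and 0.00886% in HKO libraries, against 0.0333% and 0.0443% in controls. The 8 light-strand tRNAs summed to 72.1 and 44.2 TPM in HKO and 230 and 336 TPM in control libraries, of which mt-Tp alone gave 47.2 and 30.3 TPM in HKO and 181 and 266 TPM in control libraries. The 14 heavy-strand tRNAs summed to 93.1 and 44.4 TPM in HKO and 103 and 107 TPM in control libraries.

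At P10, 3 light-strand tRNAs fell in HKO hepatocytes, the only 3 of the 31 mitochondrial genes tested that passed there, with 1.87% of all genes called lower and 12.7% in either direction. mt-Tp had 47.2 and 30.3 TPM in HKO libraries, against 181 and 266 TPM in controls (-2.50 ± 0.40, limma adjusted p = 0.002563). mt-Tn had 1.67 and 0.786 TPM in HKO libraries, against 8.08 and 11.8 TPM in controls (-2.30 ± 0.37, adjusted p = 0.002464), and mt-Tc had 2.95 and 3.14 TPM, against 11.1 and 17.2 TPM (-1.88 ± 0.23, adjusted p = 0.0005411). HKO libraries lay below controls in all 3, as they did in 13.4% of all genes, and the calls held in each of the 15 settings tried, including without HKO_P10 replicate 2 (-2.19, -2.01 and -1.91). Without HKO_P10 replicate 1, 6 mitochondrial genes were called. Relative to the median gene the 3 stood at -2.76, -2.55 and -2.13. Markers of cell types also differed at P10. The 10 hepatocyte markers summed to 59990 to 75883 TPM in HKO and 108937 to 114084 TPM in control libraries, with 4 called lower, and the 6 cholangiocyte markers to 118 to 147 TPM in HKO and 56.9 to 69.2 TPM in control libraries, with 2 of 3 tested called higher. Of all genes tested at P10, 10.8% were called higher. The part of these markers in the tRNA values was not tested.

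Of the other light-strand tRNAs at P10, mt-Te (glutamate) had 11.0 and 3.99 TPM in HKO and 20.3 and 35.3 TPM in control libraries (-1.84 ± 0.58, limma adjusted p = 0.06096), and mt-Ts1 (serine) had 4.23 and 4.66 TPM in HKO and 3.12 and 2.41 TPM in control libraries (0.54). From the step between neighbouring TPM values, mt-Tp rested on about 50 and 50 fragments in HKO and 243 and 321 in control libraries, and mt-Te on 13 and 6 in HKO and 26 and 44 in controls, so the values of single tRNAs carry a large counting error. For mt-Tn the step gave 9 fragments in control replicate 1. No step was available for mt-Tn in the other P10 libraries or for mt-Tc. Mean normalized counts in the authors' deposited table for P10 were 7.35 for mt-Tn and 11.8 for mt-Tc. All settings reuse these few fragments, so calls that held in each setting do not measure the counting error.

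At 1 month, 2 other tRNAs rose, with 4.87% of all genes called higher. mt-Ty (tyrosine) had 3.75 and 3.03 TPM in HKO libraries and was listed at 0 in both controls (limma adjusted p = 0.007034). The call rests on 5 and 3 fragments in HKO libraries. Without either HKO library the mean of mt-Ty was below the filter and it was not tested. mt-Ty thus entered the test only with the group where it was high, and its call is not independent of the filter. mt-Tt (threonine) had 5.25 and 5.05 TPM in HKO libraries and 0 and 1.91 TPM in control libraries (adjusted p = 0.0389), which rests on 7 and 5 fragments in HKO and 0 and 2 in controls. The mt-Tt call was lost without either HKO library (adjusted p = 0.1997 and 0.1415), without control replicate 1 (0.1557) and under median-ratio scaling (0.06464). The 3 tRNAs that fell at P10 did not do so at 1 month. mt-Tp had 93.7 and 89.8 TPM in HKO and 145 and 56.5 TPM in control libraries. mt-Tn had 3.76 and 5.66 TPM in HKO and 0.647 and 2.95 TPM in control libraries, and mt-Tc had 12.7 and 15.8 TPM in HKO and 8.40 and 9.60 TPM in control libraries. The difference between the knockout effects at the 2 ages passed limma's interaction test for mt-Tn (3.44 ± 0.52, adjusted p = 0.005427), mt-Tc (2.48 ± 0.33, adjusted p = 0.002693), mt-Tp (2.52 ± 0.57, adjusted p = 0.04134) and mt-Ty (2.97 ± 0.55, adjusted p = 0.01699), 4 of 31 genes, with 1.01% of all genes called higher. mt-Tc passed without each of the 8 libraries in turn, mt-Tn without each but HKO_1m replicate 1 (adjusted p = 0.06083), and mt-Tp was lost without any of 5 libraries (0.05784 to 0.1633) and under median-ratio scaling (0.06296). mt-Ty passed without each of 5 libraries and was below the filter without either HKO_1m library or control_P10 replicate 1. It was lost with mitochondrial genes left out of the total (0.05189) and with no filter on low values (0.1728). mt-Tp was lost in the same 2 settings (0.06422 and 0.2011). With no filter mt-Tn was lost as well (0.1031), while with mitochondrial genes left out it passed. mt-Tc passed in both settings.

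Among the tRNAs of the acute model, mt-Ti fell and mt-Ts1 rose. mt-Ti had 1.02, 3.30 and 4.83 TPM in acute HKO libraries, against 6.18, 11.1 and 6.87 TPM in GFP libraries (-1.25 ± 0.31, limma adjusted p = 0.004503), with no overlap, which held for 47.1% of all genes in the lower direction. Its call was lost under median-ratio scaling (-1.01, adjusted p = 0.09949). mt-Ts1, which lies opposite the end of mt-Co1, had 8.63, 8.02 and 6.65 TPM in acute HKO and 1.69, 7.81 and 0 TPM in GFP libraries, which overlapped (1.60 ± 0.47, adjusted p = 0.01312). That call rested on GFP replicate 1 or 3, since it was lost without replicate 1 (adjusted p = 0.06797) and without replicate 3 (0.84, adjusted p = 0.1634). It was also lost under median-ratio scaling (1.73, adjusted p = 0.0782). By the step between TPM values, mt-Ti rested on about 2, 7 and 8 fragments in acute HKO and 11, 17 and 11 in GFP libraries. For mt-Ts1 the step gave 17, 17 and 11 fragments in acute HKO and 3, 12 and 0 in GFP libraries. Both calls therefore carry a large counting error. mt-Tp had 58.0, 39.7 and 131 TPM in acute HKO and 45.2, 51.4 and 62.3 TPM in GFP libraries, which overlapped, and mt-Tn and mt-Tc did not pass.

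**Figure D4:**
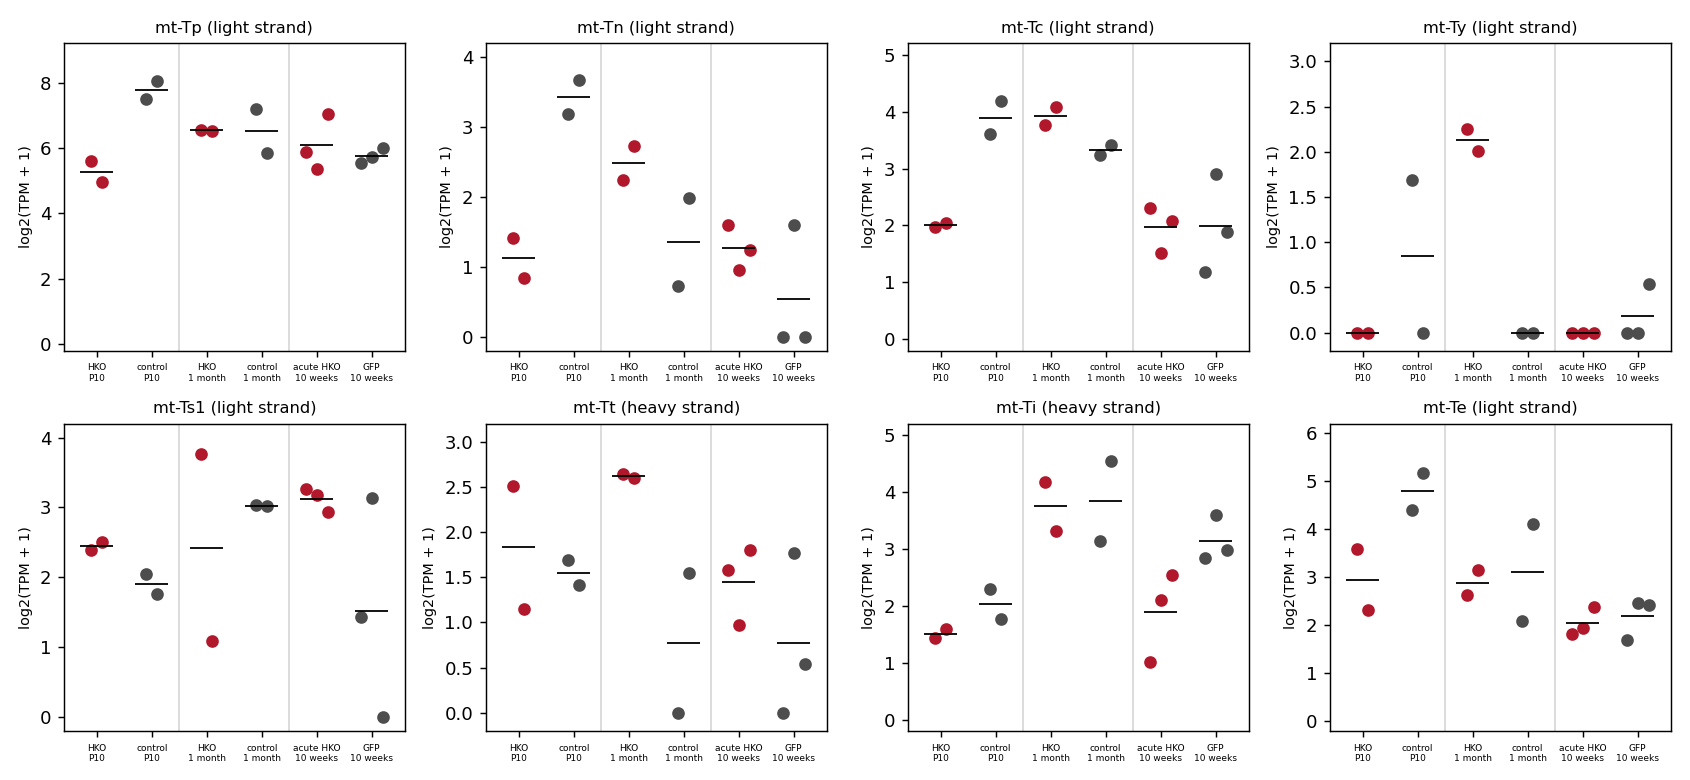
Log2(TPM + 1) of 8 mitochondrial tRNAs in each library (points) with group means (lines); panel titles give the strand, red marks knockout groups and grey their references. At P10 mt-Tp, mt-Tn and mt-Tc lie lower in both HKO libraries than in both controls, a pattern not seen at 1 month or in the acute model.

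The difference between 1 month and P10 was tested within each genotype. In HKO hepatocytes 14 of 31 tested genes were higher at 1 month in limma's test and none was lower, while 4.46% of all genes were called higher and 62.2% lower. Without HKO_1m replicate 1, 8 were called, 7 higher and 1 lower. The 14 were 7 heavy-strand mRNAs, with log2 changes of 0.51 (mt-Atp6 and mt-Cytb) to 0.77 (mt-Co1), and 7 tRNAs, among them mt-Tm (methionine; 2.40, limma adjusted p = 0.0001328) and mt-Tc (1.91, adjusted p = 6.431e-05). In control hepatocytes 2 of 31 rose and 5 fell, while 6.08% of all genes rose and 38.2% fell. mt-Ti (1.82, adjusted p = 0.004487) and mt-Tm (1.28, adjusted p = 0.008789) rose there, and mt-Tn (-2.08, adjusted p = 0.0009451), mt-Te (-1.69), mt-Ta (alanine; -1.46), mt-Tp (-1.26) and mt-Nd1 (-0.59, adjusted p = 0.03502) fell. Under median-ratio scaling the controls had 4 higher and 1 lower. Of all genes the median log2 change with age was -0.70 in HKO and -0.43 in control hepatocytes. The P10 libraries serve both these comparisons and those between genotypes. Markers of other cell types were lower at 1 month than at P10 in both genotypes, with all 8 Kupffer cell, 6 endothelial and 5 neutrophil markers called lower. The Kupffer cell markers summed to 39.1 to 103 TPM at 1 month and 345 to 523 TPM at P10 in HKO, and to 11.2 to 13.6 TPM at 1 month and 296 to 315 TPM at P10 in control libraries. The erythroid markers summed to 9.72 to 15.0 TPM at 1 month and 486 to 2919 TPM at P10 in HKO, and to 12.3 to 14.6 TPM at 1 month and 229 to 385 TPM at P10 in control libraries. Their part in the change with age was not tested.

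The proportions of the 13 mRNAs within their own pool do not depend on nuclear transcripts. With the TPM of nuclear copies added, complex I mRNAs made up 31.9%, 30.9% and 31.3% of the pool in acute HKO and 33.5%, 32.2% and 33.1% in GFP libraries, and complex IV mRNAs 39.3%, 37.2% and 36.4% in acute HKO and 36.6%, 36.3% and 37.1% in GFP libraries. Single mRNAs differed more. mt-Nd3 made up 1.85%, 2.13% and 1.73% in acute HKO libraries, against 3.40%, 3.21% and 2.76% in GFP libraries, and mt-Nd4 7.20%, 7.01% and 7.32%, against 5.70%, 5.73% and 5.50%. mt-Nd1 took a smaller part of the pool at 1 month than at P10 in both genotypes. It stood at 5.68% and 5.44% in HKO and 5.93% and 6.00% in control libraries at 1 month, against 8.35% and 8.36% in HKO and 8.41% and 8.60% in control libraries at P10.

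Some mitochondrial mRNAs have near-identical copies in the nuclear genome, and reads shared with them can be assigned to either. The 7 copies that shared at least 80% of their 31-base words with a mitochondrial gene lie in a row on the minus strand of chromosome 1 (GRCm38), from Gm28439 (chr1:24611535-24612410), a copy of part of mt-Nd4, to Gm29216 (chr1:24615706-24616197), a copy of the end of mt-Co1. All are annotated as unprocessed pseudogenes. Gm10222, Gm10925, Gm28437, Gm28439 and Gm28661 differed from mt-Nd4l, mt-Atp6, mt-Co3, mt-Nd4 and mt-Co2 at 0 bases, Gm28438 from mt-Nd3 at 1 of 345 bases, and Gm29216 from mt-Co1 at 6 of 492 bases.

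The 7 copies together held 3.06% and 3.98% of TPM in HKO and 3.03% and 2.77% in control libraries at P10, and 1.83% and 3.10% in HKO and 2.46% and 2.43% in control libraries at 1 month. Acute libraries were lower: the copies held 0.101%, 0.145% and 0.273% in HKO and 0.190%, 0.192% and 0.138% in GFP libraries. The albumin-Cre line and the acute model thus stood apart in both genotypes. Gm29216 had 13600 and 21351 TPM in HKO and 9842 and 10864 TPM in control libraries at P10, while at 1 month it had 20.5 and 14224 TPM in HKO and 10818 and 11432 TPM in control libraries, so HKO_1m replicate 1 differed from the other 7 libraries of that line. The acute libraries had 3.54, 5.02 and 4.28 TPM in HKO and 4.01, 2.87 and 1.94 TPM in GFP libraries. Adding each copy to its mitochondrial gene left the acute difference in mRNA share at 23.2 percentage points, put mt-Co1 at 1 month at 0.50 (adjusted p = 0.1141) in place of 0.68, and put mt-Nd3 in the acute model at 0.68 (adjusted p = 0.02956) in place of 1.00.

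**Figure D5:**
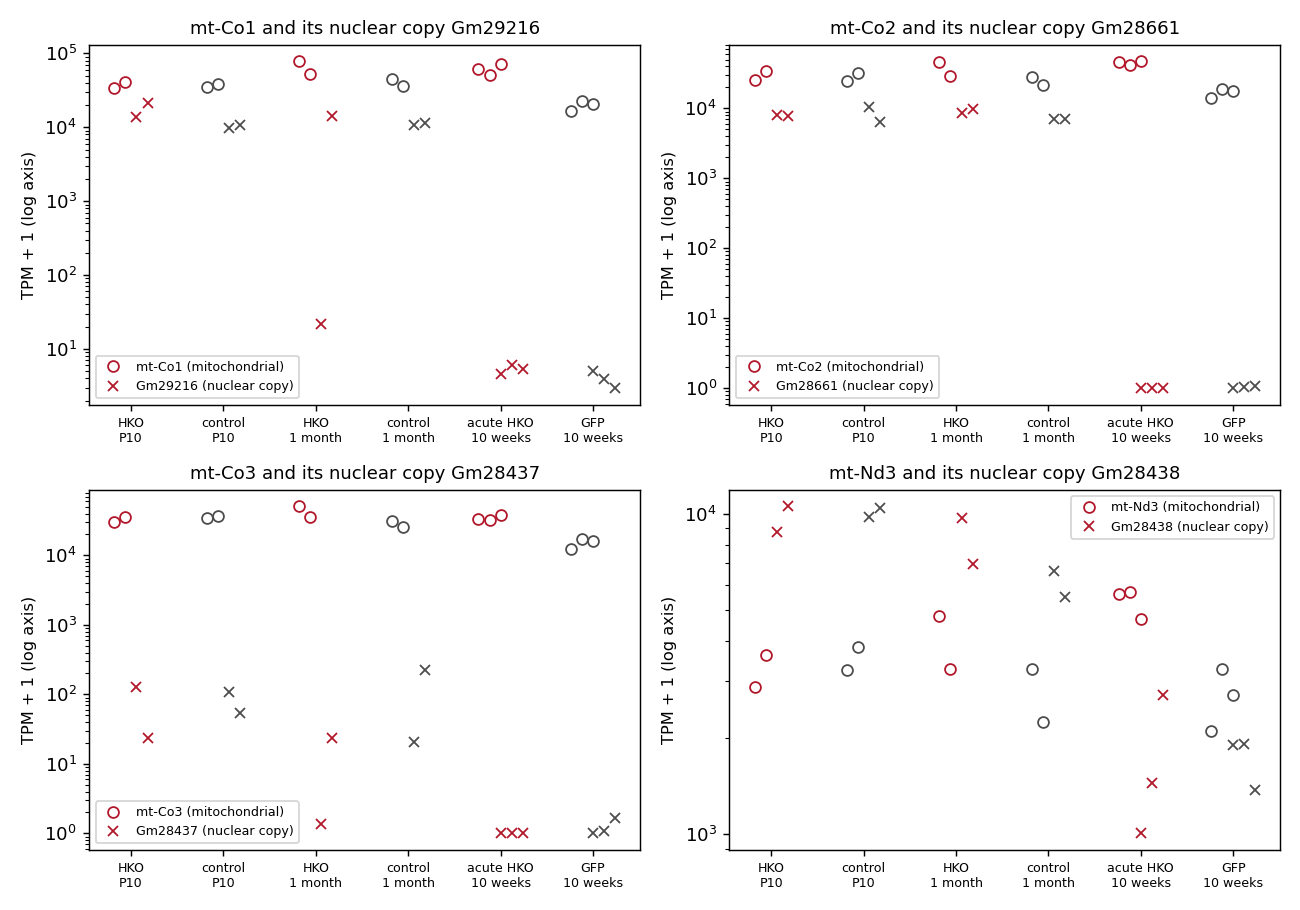
TPM + 1 on a log axis of 4 mitochondrial mRNAs (circles) and of their nuclear copies on chromosome 1 (crosses) in each library; red marks knockout groups and grey their references. Gm29216 lies at 20.5 TPM in HKO_1m replicate 1, against 9842 to 21351 TPM in the other P10 and 1 month libraries and 1.94 to 5.02 TPM in the acute model.

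The nuclear genes that serve mitochondrial RNA were followed as lists. With acute loss 26 of 75 nuclear subunits of the respiratory chain and ATP synthase were called lower and 0 higher on deposited TPM (median -0.43, beside -0.36 for all genes), where 34.8% of all genes were called lower and 5.93% higher, so the list's share lay near that of all genes. Of the 75, 38 were lower at an unadjusted p under 0.05. The calls were 6 lower and 1 higher under median-ratio scaling and 0 lower and 4 higher with mitochondrial genes left out of the total. Of 14 tested genes of mitochondrial DNA transcription and replication, 7 fell and 1 rose on deposited TPM (median -0.42), 5 and 2 under median-ratio scaling, and 3 and 3 with mitochondrial genes left out, where 15 were tested. Under all 3 scalings Twnk, the replicative helicase (-1.13, limma adjusted p = 0.000393), Tfb2m, a transcription initiation factor (-1.07, adjusted p = 0.0005673), and Mterf4, which acts in mitochondrial ribosome assembly (-1.08, adjusted p = 0.0009887), were called lower, and Primpol, a primase-polymerase (0.62, adjusted p = 0.02301), higher. Polrmt, the mitochondrial RNA polymerase, had 0.45 (adjusted p = 0.1027) on deposited TPM and was called higher under the other 2 scalings (0.70 and 0.87), and Tfam, which packages and activates mitochondrial DNA, had -0.31 (adjusted p = 0.2284).

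Of 21 genes of mitochondrial RNA processing, polyadenylation and decay, 8 fell and 0 rose in the acute model on deposited TPM (median -0.33, beside 34.8% of all genes called lower), with 6 lower and 2 higher under median-ratio scaling and 0 lower and 1 higher with mitochondrial genes left out. Lrpprc, which stabilises mitochondrial mRNAs, had -0.93 (limma adjusted p = 0.001941) and -0.50 with mitochondrial genes left out (adjusted p = 0.08686). Of 21 genes that modify mitochondrial rRNA and tRNA, 9 fell, 10 under median-ratio scaling and 1 with mitochondrial genes left out; Mrm3, a methyltransferase of the large subunit rRNA, was lower under all 3 (-1.16, adjusted p = 0.0003254). Of 20 mitochondrial aminoacyl-tRNA synthetases 4 fell and 1 rose on deposited TPM, again beside 34.8% of all genes called lower and 5.93% higher, with Fars2, which charges the phenylalanine tRNA, lower (-1.28, adjusted p = 0.0001208) and Pars2, which charges mt-Tp, higher (0.52, adjusted p = 0.03685).

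At P10 none of the 75 nuclear subunits was called on deposited TPM in limma's test, and none had an unadjusted p under 0.05 (median 0.06, beside 0.25 for all genes). Of the 75, 4 were lower under median-ratio scaling and 3 higher with mitochondrial genes left out. None of 16 transcription and replication genes (0 at an unadjusted p under 0.05) and none of 21 RNA modification genes (3) passed there, and 1 of 21 RNA processing genes did, Fastkd2 (0.66, limma adjusted p = 0.04588). Of 16 genes of the mitochondrial stress response 10 rose (median 1.18), where 10.8% of all genes were called higher. They were led by Trib3, a pseudokinase (3.52, adjusted p = 1.539e-05), Psat1, of serine synthesis (2.02, adjusted p = 0.0001307), and Gdf15, a secreted stress signal (2.25, adjusted p = 0.0007257). Of the list, 9 and 10 rose under the other 2 scalings. On deposited TPM 1 of the 16 was called higher at 1 month and 0 lower (median 0.45), where 4.87% of all genes were called higher. In the acute model 3 of 14 tested rose and 2 fell (median -0.04). There 5.93% of all genes were called higher and 34.8% lower. At 1 month 0 of 75 nuclear subunits passed on deposited TPM in limma's test, and 1 had an unadjusted p under 0.05 (median -0.24, beside -0.001 for all genes). On deposited TPM 233 of all 11736 genes tested were called lower at 1 month. Under median-ratio scaling 14 of the 75 were lower. List counts under the other scalings, here and in the acute model, stand without the share of all genes called there. They are therefore not read as results about the lists.

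In the authors' deposited table for the acute model all 13 mitochondrial mRNAs had higher values at an adjusted p under 0.05, from mt-Nd6 (0.90, adjusted p = 0.005371) to mt-Nd4 (2.04), and neither rRNA was called; 16.4% of its genes were called higher and 32.5% in either direction. In the authors' deposited table for P10, which called 11.8% of its genes lower and 25.3% in either direction, both rRNAs were lower (mt-Rnr1 -1.19, adjusted p = 2.753e-22, and mt-Rnr2 -0.97, adjusted p = 1.867e-12), as were 5 of 13 mRNAs, among them mt-Nd6 (-0.76, adjusted p = 2.963e-05) and mt-Nd5 (-0.55, adjusted p = 0.0004259). Of 7 tRNAs with an adjusted p in the authors' deposited table for P10, mt-Tp (-2.86, adjusted p = 2.828e-14) and mt-Te (-2.23, adjusted p = 0.02604) were lower, while mt-Tn (-3.34, adjusted p = 0.0703) and mt-Tc (-2.52, adjusted p = 0.06322) did not pass. In the authors' deposited table for the acute model mt-Ti (-1.11, adjusted p = 0.339) and mt-Ts1 (1.54, adjusted p = 0.2792) did not pass. In the authors' deposited table for 1 month, which called 13.5% of its genes, no mitochondrial gene was called.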

How the data were processed

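Purified hepatocyte RNA from 14 libraries was analysed from the processed files that the authors deposited. Transcript TPM were deposited by the authors; per the submitters' processing notes bcl2fastq 2.17.1.14, kallisto 0.46.0, DESeq2 (no version named) and GRCm38 (mm10) were used. Per the file headers the authors also deposited, for each knockout comparison, a mean normalized count (signal), log2 fold changes and their standard errors, a test score, and raw and adjusted p-values. The step from transcripts to gene-level counts is not described in these sources.

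Gene TPM were sums over transcripts, and 53229 gene identifiers matched GENCODE M21. TPM do not give read counts, so no count model was fitted. limma 3.58.1 in R 4.3.3 (trend, two-sided) was run on log2(TPM + 1), pseudocount 1, on genes that averaged 1 TPM or more in the fitted libraries, with Benjamini-Hochberg adjustment over all genes tested and a threshold of 0.05. Fold changes on this scale understate the change of low genes. P10, 1 month and age contrasts shared a fit of 8 libraries, the acute contrast used 6, and the acute against 1 month contrast used 14; the number of libraries limits the precision. The fits were tested on simulated data. Shares of TPM were compared by exact permutation tests over libraries, two-sided, 12 comparisons in all, with no adjustment since none could pass it; ratios between members are descriptions. The median-ratio scaling, the total without mitochondrial genes and leaving out each replicate were among the alternatives. tRNA fragments were estimated from the smallest step between TPM values, with a tolerance of 0.01. Nuclear copies were found by shared 31-base words (22 nuclear transcripts shared at least 1).

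The 37 genes, the pathway lists and the tests were chosen with earlier results of these data known. Named were all mRNAs and rRNAs, each tRNA past the threshold, with others by count and range or where a comparison turned on them, up to 3 members of a list with the smallest p and those that moved against it, Srsf1 and the nuclear copies with a mean of at least 10 TPM; mt-Te, Polrmt and Tfam were named after their values were seen.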

Additional observations from a re-analysis of the deposited data

Results flagged for a closer look

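Between P10 and 1 month the knockout effect differed by limma's interaction test for 4 light-strand tRNAs. Of these, mt-Ty passed the filter on low values only with both HKO_1m libraries, where it was high, and control_P10 replicate 1 in the fit. Its call is therefore not independent of the filter. The difference, 1 month minus P10 on the log2(TPM + 1) scale, was 3.44 ± 0.52 for mt-Tn (SE; adjusted p = 0.005427), 2.48 ± 0.33 for mt-Tc (adjusted p = 0.002693), 2.52 ± 0.57 for mt-Tp (adjusted p = 0.04134) and 2.97 ± 0.55 for mt-Ty (adjusted p = 0.01699), the last between groups that were partly listed at 0.

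The acute effect exceeded the 1 month effect for 2 mRNAs, mt-Nd4 by 1.13 ± 0.30 (adjusted p = 0.03754) and mt-Nd5 by 1.30 ± 0.29 (adjusted p = 0.01476). The count of such genes was 9 without HKO_1m replicate 1, and 0 without HKO_1m replicate 2 or control_1m replicate 1.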

How the results depend on the processing

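Of 925 values of single genes under alternatives, 800 kept their direction and their side of the threshold, 38 newly passed it and 34 no longer passed it. A further 52 changed sign where neither value passed: 32 at P10 (-0.41 to 0.11 under the alternatives), 13 at 1 month (-0.66 to 0.60) and 7 in the acute model (-0.13 to 0.44). A sign change with a call was seen once: mt-Ts1 at 1 month had 0.74 without HKO_1m replicate 2, against -1.94 without HKO_1m replicate 1 and -0.60 with both. The alternatives that added nuclear copies were chosen after seeing the data. The count of mitochondrial genes called at P10 was 3, and 10 with the total over protein-coding genes, 7 in a fit of the 4 P10 libraries and 6 with the replicate block. At 1 month it was 2, and 1 with a pseudocount of 0.1, under median-ratio scaling (also with copies added) and with no trend, 0 with no filter, 6 with mitochondrial genes left out of the total, 8 with the total over protein-coding genes and in a fit of 4 libraries, and 4 with the replicate block; without HKO_1m replicate 1 it was 1, in the lower direction. With age in controls it was 7, and 2 with no filter, 13 with the protein-coding total, 5 under median-ratio scaling and 6 with copies added as well, both mostly higher in place of mostly lower. With age in HKO it was 14, and 6 with no filter. For the 1 month minus P10 effect it was 4, and 1 with no filter, 2 with mitochondrial genes left out and 8 with the protein-coding total. In the acute model it was 15, and 2 with no filter. For the acute minus 1 month effect it was 2, and 0 with no filter, 6 under median-ratio scaling and 8 with copies added as well. Leaving out each replicate in turn gave 3 to 6 at P10, 1 to 5 at 1 month, 6 to 7 and 8 to 15 with age in controls and HKO, 2 to 7 for the 1 month minus P10 effect, 13 to 19 in the acute model and 0 to 9 for the acute minus 1 month effect. Over protein-coding and mitochondrial genes the acute difference in share was 29.1 points for all mitochondrial genes, in place of 23.1, and 29.2 points for mRNAs, in place of 23.2, and the rRNA difference at P10 was -0.146 in place of -0.125 points. The counts of genes called stand without the share of all genes called in each setting. A change in count may thus not be particular to mitochondrial genes. The cause of these changes was not tested.

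Pairing by replicate number was not used in the main fits. Deviations of same-numbered libraries correlated at 0.000675 at P10 and 0.264 at 1 month. They correlated at -0.00348, 0.278 and 0.242 in the acute model. There replicates 2 and 3 of the acute HKO correlated best with their own number. The correlations at 1 month and of acute replicates 2 and 3 were positive. With 2 libraries in a group, deviations from the group mean mirror each other, so P10 and 1 month each give 1 correlation. A small value at P10 therefore cannot show that pairing is absent. In the acute model, too, the correlations depend on each other. Whether same-numbered libraries shared their handling was not tested. With the replicate block 17 genes were called in the acute model. Total reads are unknown, and tRNAs with a few fragments a library limit what their values can show.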
